A study of Mus musculus with 55 samples.

Results

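Immature neurons depolarised with KCl for 180 min were compared with unstimulated neurons of the same age. The comparison used 6 samples, 3 stimulated and 3 basal, taken by their labels from the 28 samples of a maturation experiment in a series of 55. Per the labels, the neurons were dissected from cortex and hippocampus of CD1 mouse embryos of mixed sex at embryonic day 16 to 17.5 (the study's methods give a single day within this range) and kept for 7 days in vitro (7DIV). Stimulated cultures received 55 mM KCl in their growth medium, with no silencing of activity beforehand. Basal cultures received no drug and are labelled 0 min. No label gives an unstimulated control at 180 min, so KCl and elapsed time cannot be told apart. Other groups of the same experiment were set beside them. The first was 7DIV neurons given 55 mM KCl for 15 min (n = 3). The next was 7DIV neurons given bicuculline at 50 μM, which blocks inhibition through GABA-A receptors, together with 4-aminopyridine at 2.5 mM, which closes potassium channels (the pair is called Bic here), for 15 or 180 min (n = 3 each). The last was neurons labelled 23DIV, which the study calls 21DIV, at rest or after KCl for 180 min (n = 3 each). No label ties a replicate to a separate dissection or embryo, so p-values measure the spread between these samples, which may be technical. Embryos and brain regions were pooled in the cultures, and each library is a bulk sample of all its cells.

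High extracellular potassium shifts the membrane potential of a neuron without needing synapses, and calcium then enters through voltage-gated channels, mainly of the L type. Calcium activates kinases that act on factors already bound to DNA, among them CREB at cAMP response elements and serum response factor at CArG boxes. Immediate early genes, many of which encode transcription factors, are the first to be transcribed. Effector genes for synapses, secretion and signalling follow them in mature neurons.

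The 6 libraries held between 1659722 and 3664631 counts on genes. Neuron markers summed to between 10496 and 10659 CPM (counts scaled to a common library size) in basal libraries and to between 10651 and 11137 in KCl libraries, and none of the 12 was called. Astrocyte markers summed to between 1204 and 1470 CPM at rest and to between 1494 and 1933 CPM after KCl, with all 14 tested and 1, Sox9, called. The oligodendrocyte lineage list (476 to 754 against 648 to 849 CPM) and the dividing progenitor list (266 to 346 against 327 to 456 CPM) overlapped between the groups. Microglia markers stayed between 17.6 and 30.3 CPM with P2ry12 and Trem2 at 0, endothelial and mural markers between 12.3 and 31 CPM, and fibroblast markers between 66.6 and 123 CPM with Lum and Slc6a13 at 0. In bulk RNA, more cells of a type and more RNA per cell cannot be told apart.

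KCl for 180 min raised 123 genes and lowered 110 of the 11746 genes tested (1.98%). The rises are 1.05% and the falls 0.936% of them. A gene was called where the quasi-likelihood test of edgeR gave a Benjamini-Hochberg adjusted p below 0.05 and the change reached 1.5-fold. The median log2 fold change was 1.16 for the rises and -1.12 for the falls, against 0 over all genes tested. A change over 4-fold was seen for 19 rises and 11 falls. All 3 KCl libraries lay on the same side of all 3 basal libraries for 225 of the 233 called genes (96.6%), and for 16.9% of all genes tested. Called genes were of moderate level at rest, with a median of 31.1 CPM for the rises, 33.9 CPM for the falls and 21.5 CPM for all genes tested.

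**Figure D1:**
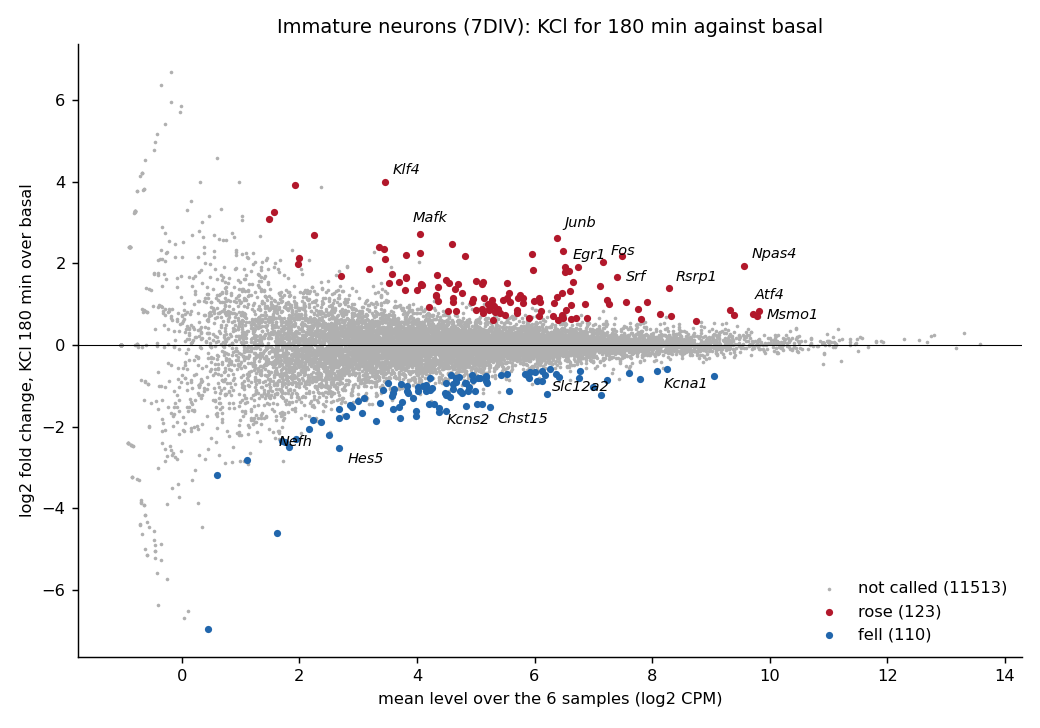
Log2 fold change of KCl 180 min over basal at 7DIV (vertical axis) against the mean level over the 6 samples in log2 CPM (horizontal axis) for 11746 genes. Red points mark the 123 rises, blue points the 110 falls and grey points genes that were not called; Klf4, Junb, Egr1 and Fos are among the named points, with 19 rises and 11 falls beyond 4-fold.

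Leaving out a library lowered the number of calls. It was 106 without KCl replicate 2, 131 without KCl replicate 3, 130 without basal replicate 4 and 140 without basal replicate 3, and it was 183 and 176 without KCl replicate 1 and basal replicate 2. Each of these fits has 1 sample fewer. No called gene changed direction in the 6 fits, and 67 genes, 44 rises and 23 falls, were called in every one of them. For genes named below as rises or falls over basal, the number of these 6 fits that kept the call is given where it is under 6.

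Transcription factors of the immediate early class held the most calls of the 34 lists. Of 27 tested, 14 rose, none fell and 13 were not called, where 1.05% of all genes tested rose. Their median log2 fold change was 1.49. Junb (chromosome 8, 84976909 to 84978748), which encodes a subunit of the AP-1 dimer, had the smallest p-value of the whole comparison. It measured 42.2, 31.9 and 27.6 CPM in the basal libraries and 170, 248 and 208 CPM after KCl. Every KCl library was at least 4 times as high as any basal library (log2 fold change 2.63 ± 0.23, SE; adjusted p = 2.6e-08 in edgeR). Fos (chromosome 12, 85473890 to 85477274), its partner in AP-1, measured 64.4, 71.2 and 77.2 CPM at rest and 288, 268 and 314 CPM after KCl. Its groups were far apart, with a log2 fold change of 2.03 ± 0.28 (SE; adjusted p = 3.72e-05 in edgeR). Fosb went from 175, 57.7 and 46.9 to 308, 502 and 448 CPM (log2 fold change 2.18), and basal replicate 2 was at least 3 times as high as the other basal libraries. Jun rose less, with a log2 fold change of 1.04 (called in 3 of the 6 fits).

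The other early factors belong to several DNA-binding families. Egr1, a zinc finger factor, measured 30.8, 58.9 and 35.8 CPM at rest and 155, 215 and 228 CPM after KCl, with no overlap (log2 fold change 2.29 ± 0.23, SE; adjusted p = 3.31e-07 in edgeR). Npas4 (chromosome 19, 4984353 to 5003439), a bHLH-PAS factor that responds selectively to calcium entry, was already high at rest, at 287, 473 and 443 CPM. It reached 969, 1997 and 1655 CPM after KCl, the highest level of any of these factors (log2 fold change 1.94; adjusted p = 0.000295 in edgeR). The orphan nuclear receptors Nr4a1, Nr4a2 and Nr4a3 had log2 fold changes of 1.79, 1.91 and 0.74. Nr4a3 had the highest resting level of the 3, between 472 and 578 CPM, and the smallest change, and it was called in 1 of the 6 fits. Mafk and Maff, small Maf proteins that pair with other leucine zipper factors, had log2 fold changes of 2.71 and 1.60, and Maff was called in 2 of the 6 fits. Crem, a relative of CREB whose transcripts include activators and the repressor ICER, measured between 17.5 and 19.0 CPM at rest and between 51.6 and 58.3 CPM after KCl. Ier2 (log2 fold change 2.22) and Egr4 (1.49) complete the list. Egr4 is the only one of the 14 whose groups overlapped, since KCl replicate 1 measured 23.6 CPM and basal replicate 2 measured 36.5 CPM. It was called in 2 of the 6 fits. Over the 6 fits that left out 1 library, between 10 and 15 of the list were called, and 10 of the 14 were called in all of them.

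**Figure D2:**
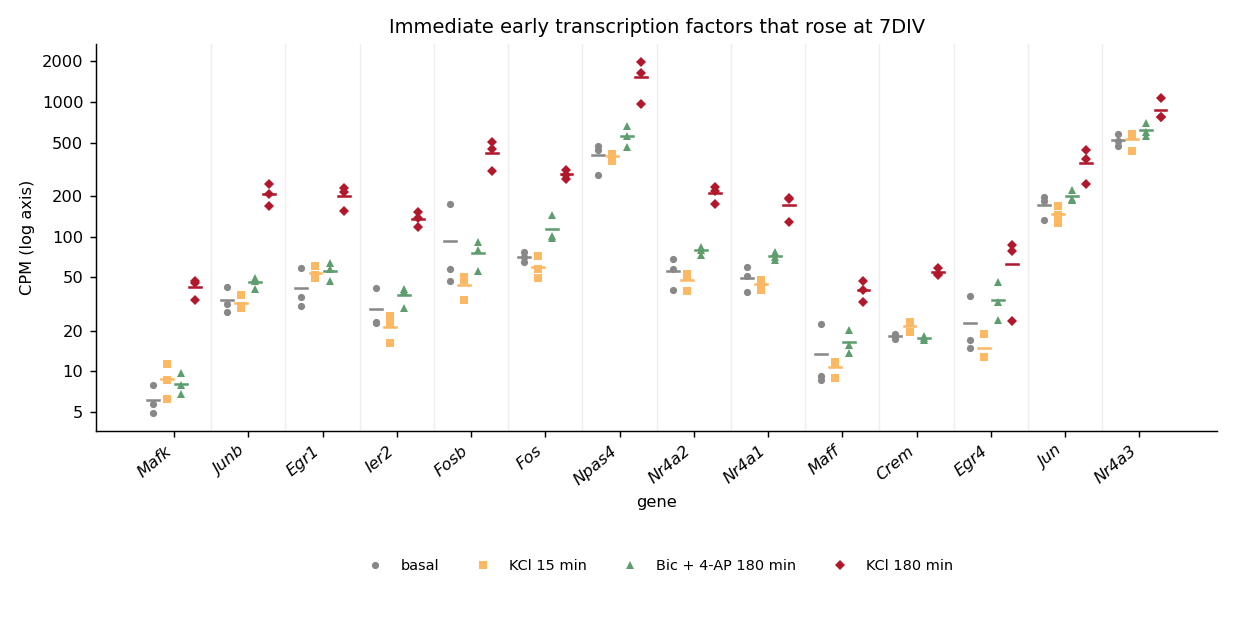
CPM on a log axis for the 14 immediate early transcription factors that rose, each sample a point and each group mean a line, at 7DIV. Red diamonds (KCl 180 min) stand above grey circles (basal), orange squares (KCl 15 min) and green triangles (Bic 180 min) for nearly every gene; Npas4 is the highest and Mafk among the lowest.

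Members of the same list that were not called included small changes and larger ones that missed the threshold. Egr3 had a log2 fold change of -0.33 (adjusted p = 0.813 in edgeR), and the Egr corepressors Nab1 and Nab2 had -0.07 and -0.69. Atf3 had 1.08 (adjusted p = 0.565) and Fosl1 had 3.87 (adjusted p = 0.0753), both with all KCl libraries above all basal ones. Cebpd had 2.16 (adjusted p = 0.227). Fosl2, Cebpb and Nfil3 had 0.83, 0.74 and 0.69, with adjusted p-values of 0.211, 0.271 and 0.319.

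Serum response factor, the protein that binds CArG boxes of early genes, was itself among the rises. Srf was picked after its values were seen. It measured 90, 89.6 and 104 CPM at rest and 258, 340 and 303 CPM after KCl, so that the groups did not overlap (log2 fold change 1.66 ± 0.27, SE; adjusted p = 0.000378 in edgeR).

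Among called genes with a mean log2 CPM of at least 3 over the 6 samples and no overlap between the groups, the largest rise was Klf4 (chromosome 4, 55527137 to 55532475), a Krüppel-like zinc finger factor. It measured 1.42, 3.68 and 2.71 CPM at rest and 30, 43 and 51.2 CPM after KCl, a log2 fold change of 4.00 ± 0.54 (SE; adjusted p = 3.72e-05 in edgeR). Klf16 (log2 fold change 0.94, called in 1 of the 6 fits) was the other called member of 12 KLF factors tested. Their median was 0.09, and 1.05% of all genes tested rose. Nfkbid, which encodes a nuclear IκB protein, measured 9, 11.7 and 9.75 CPM at rest and 42, 60.4 and 64.8 CPM after KCl (log2 fold change 2.47; adjusted p = 5.77e-06 in edgeR). Junb, Mafk, Egr1, Ier2 and Fosb are also among the 12 largest rises by this rule. The remaining ones were Lysmd3 (log2 fold change 2.40), the homeobox gene Prox1 (2.36, called in 5 of the 6 fits), the predicted gene Gm40260 (2.24, called in 2 of the 6 fits), Zfp184 (2.20) and Spty2d1 (2.17), which encodes a histone chaperone. Fbxo33, which encodes an F-box protein, went from 26.5, 34.3 and 37.7 to 112, 118 and 127 CPM, with a small spread within each group (log2 fold change 1.84 ± 0.18, SE; adjusted p = 9.77e-08 in edgeR).

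The promoters of called genes were searched for binding letters of the factors above, as a description of sequence only. Windows ran from 250 bases before to 50 bases after each RefSeq start (GRCm38.p6), on both strands, and a gene was counted if any of its windows held the letters. The full cAMP response element TGACGTCA lay in a window of 14 of the 97 rises with a window (14.4%) and of 3 of the 84 falls (3.57%). It lay in 366 of 9379 tested genes with a window (3.9%) and in 549 of all 27025 genes (2.03%). The EGR letters GCGNGGGCG were found for 19 rises (19.6%), 6 falls (7.14%), 1238 tested genes (13.2%) and 6.27% of all genes. The AP-1 letters TGANTCA were found for 2 rises (2.06%), 3 falls (3.57%), 5.76% of tested genes and 8.97% of all genes. A CArG box was in 1 rise, Srf, and 1 fall, and in 1.54% of tested and 1.81% of all genes. A heat shock element, taken as 3 alternating GAA and TTC units each 2 bases apart, was in 0 rises and 1 fall (1.19%), and in 0.554% of tested and 0.662% of all genes. Among the 11 early factors with a window, 5 held the EGR letters (45.5%), 1 the cAMP response element (9.09%), and none the AP-1 letters, a CArG box or a heat shock element. No match means only that these letters are not in this window.

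Among the 14 rises with the response element, 4 windows are shown to set the place of the element beside the start site, and the Srf window is shown for its pair of CArG boxes. Capitals mark the motif, and the start site follows the 250th base. In the window shown, the element begins 51 bases before the start for Nfkbid, 29 for Maff, 94 for Zbtb11 and 12 for Ppp1r15a. The CArG boxes begin 82 and 62 bases before the start of Srf. Nfkbid and Maff each have another window that holds no match. Which start these neurons use was not tested.
Nfkbid, chr7:30422156-30422455, plus strand: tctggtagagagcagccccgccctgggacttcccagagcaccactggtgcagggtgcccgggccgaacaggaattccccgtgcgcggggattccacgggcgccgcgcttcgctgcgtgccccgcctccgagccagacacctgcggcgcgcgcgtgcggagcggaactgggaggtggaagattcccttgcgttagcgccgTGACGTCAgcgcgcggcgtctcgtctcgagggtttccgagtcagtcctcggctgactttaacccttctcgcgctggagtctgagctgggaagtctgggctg
Maff, chr15:79347270-79347569, plus strand: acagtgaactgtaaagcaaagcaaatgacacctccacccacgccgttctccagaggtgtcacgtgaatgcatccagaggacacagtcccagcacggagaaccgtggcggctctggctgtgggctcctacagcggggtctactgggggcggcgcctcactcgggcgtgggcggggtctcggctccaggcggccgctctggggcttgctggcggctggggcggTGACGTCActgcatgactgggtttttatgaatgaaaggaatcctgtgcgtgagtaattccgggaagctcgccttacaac
Zbtb11, chr16:55973554-55973853, plus strand: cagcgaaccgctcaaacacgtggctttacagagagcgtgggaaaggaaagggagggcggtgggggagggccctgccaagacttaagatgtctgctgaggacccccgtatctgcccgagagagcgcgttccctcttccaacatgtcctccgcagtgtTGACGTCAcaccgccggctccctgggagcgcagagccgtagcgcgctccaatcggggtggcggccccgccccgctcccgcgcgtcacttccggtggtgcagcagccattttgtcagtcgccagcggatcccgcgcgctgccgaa
Ppp1r15a, chr7:45526219-45526518, minus strand: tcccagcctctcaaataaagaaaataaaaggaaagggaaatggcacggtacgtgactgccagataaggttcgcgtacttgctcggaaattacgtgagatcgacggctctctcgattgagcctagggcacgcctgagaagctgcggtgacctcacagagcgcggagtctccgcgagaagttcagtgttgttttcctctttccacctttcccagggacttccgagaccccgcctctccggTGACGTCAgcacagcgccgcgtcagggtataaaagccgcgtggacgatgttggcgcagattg
Srf, chr17:46556113-46556412, minus strand: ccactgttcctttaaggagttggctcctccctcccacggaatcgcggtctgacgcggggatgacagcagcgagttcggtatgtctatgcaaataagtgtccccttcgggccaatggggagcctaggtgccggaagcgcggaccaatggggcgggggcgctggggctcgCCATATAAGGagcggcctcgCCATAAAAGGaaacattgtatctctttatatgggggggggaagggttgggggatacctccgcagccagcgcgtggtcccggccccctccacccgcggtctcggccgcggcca
Zbtb11, a zinc finger and BTB factor chosen here for its window, measured between 61.6 and 112 CPM at rest and between 215 and 253 CPM after KCl (log2 fold change 1.45). Crkl and Elovl5 are others of the 14. Ccnl1, Ppm1d, Cbx8, Arl5b and Suv39h2 are too, called in 5, 3, 2, 2 and 1 of the 6 fits that left out 1 library. The rest are Zdbf2, Nectin2 and Kif18a, called in 3, 1 and 0 of these fits. In Kif18a, Nectin2 and Elovl5 the element begins after the start, at bases 31, 40 and 4 counted from it.

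Of 27 activity-regulated effectors tested, 3 rose, 1 fell and 23 were not called, with a median log2 fold change of 0.18. Over all genes tested, 1.05% rose and 0.936% fell. Gadd45g, a stress and demethylation-related early gene, went from 56.8, 52.1 and 37.9 to 109, 231 and 206 CPM, without overlap (log2 fold change 1.91; adjusted p = 0.00209 in edgeR). Ppp1r15a, which recruits the phosphatase of the translation factor eIF2α, had a log2 fold change of 1.01, and the pseudokinase gene Trib1 had 1.15 (called in 3 of the 6 fits). The small GTPase gene Rasl11b fell by 0.66 on the log2 scale (called in 2 of the 6 fits). Arc, the cytoskeletal regulator of AMPA receptor traffic, measured 22 ± 7.44 CPM at rest and 13.6 ± 6.68 CPM after KCl (SD, n = 3 each), a difference within the spread (log2 fold change -0.62; adjusted p = 0.642 in edgeR). Ptgs2, Rasl11a and Gadd45a had log2 fold changes of -0.13, 0.55 and 1.24 and were not called.

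None of 29 secreted factors was called, where 1.98% of all genes tested were, and their median was -0.03. Bdnf, the neurotrophin, measured 199 ± 29.1 and 253 ± 13.1 CPM (SD, n = 3 each; log2 fold change 0.35, adjusted p = 0.579 in edgeR). Vgf (0.11), Nptx1 (-0.33), Tac1 (-0.46) and the prohormone protease Pcsk1 (0.63, adjusted p = 0.143) were not called either. Hbegf had the highest value of the list, at 0.97 (adjusted p = 0.097). The 14 MAPK feedback inhibitors had no call and a median of 0.38, with Dusp1 at 0.66 (adjusted p = 0.336) and Spry1 at 0.44. The 16 genes of CREB, its CRTC coactivators and SIK kinases had no call and a median of -0.12. Creb1 measured 27.1 ± 1.81 and 26.4 ± 5.03 CPM (SD, n = 3 each), and Sik1 had a log2 fold change of 1.09 (adjusted p = 0.606).

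Genes of sterol synthesis and uptake included several rises. Of 23 tested, 4 rose, none fell and 19 were not called, where 1.05% of all genes tested rose. The median was 0.24, 19 of the 23 values were above 0, and for 11 all KCl libraries lay above all basal ones, as for 992 of all 11746 genes tested (8.45%). Msmo1, a C4-methylsterol oxidase of cholesterol synthesis, measured 684, 598 and 648 CPM at rest and 1059, 1136 and 1085 CPM after KCl. The spread within groups was far smaller than the gap (log2 fold change 0.76 ± 0.11, SE; adjusted p = 0.00013 in edgeR). Among the other rises, the later enzyme Sc5d had 0.67 and the sterol carrier Stard4 had 1.49. Leaving out a library left between 1 and 2 calls in this list: Sc5d was kept in 1 of the 6 fits and Stard4 in 3. Sqle, at 0.46, passed the p threshold (0.0224) but not the fold. The regulators Srebf1 and Srebf2 had -0.38 and 0.06, and Hmgcs1, which opens the pathway, had 0.16.

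Among 22 heat shock chaperones tested, 3 rose and 19 were not called, with a median of 0.10, where 1.05% of all genes tested rose. Hspa1b, an inducible Hsp70 gene, measured 29.4, 28.2 and 31.2 CPM at rest and 69.9, 59.5 and 62.4 CPM after KCl (log2 fold change 1.10; adjusted p = 0.00475 in edgeR). Its neighbour Hspa1a was lower, at 1.89, 0 and 3.52 CPM against 22.7, 8.93 and 10.9 CPM (log2 fold change 2.68). The pair is nearly identical in sequence, so reads could be split between them and each value is uncertain. Dnajb4, a Hsp40 cochaperone, had 1.20 (called in 3 of the 6 fits). The heat shock factor gene Hsf1 (-0.14), Hspd1 (-0.15) and Hspb8 (1.91, adjusted p = 0.105) were not called.

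Concentrated KCl was added to the growth medium, and genes known to respond to raised tonicity were listed for this reason. Of 28 tested, 2 rose and 1 fell, and the median was -0.02, where 1.98% of all genes tested were called. Nfat5, the tonicity-responsive factor, went from 8.05, 4.91 and 6.50 to 15.4, 23.4 and 18 CPM, and the amino acid transporter gene Slc38a2 from 462, 458 and 504 to 942, 821 and 808 CPM. Neither overlapped (log2 fold changes 1.52 and 0.85; adjusted p = 0.0109 and 0.0459 in edgeR). Slc12a2 (chromosome 18, 57878512 to 57946821), the inward chloride cotransporter NKCC1 of young neurons, fell from 81.9, 92.6 and 103 to 63.0, 53.6 and 50.9 CPM (log2 fold change -0.74; adjusted p = 0.0119 in edgeR). These calls were kept in 3, 0 and 3 of the 6 fits, and the list held between 0 and 2 calls in them. Slc5a3 (0.21), Sgk1 (-0.02) and Aqp4 (0.39) were not called.

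Atf4, the factor of the integrated stress response, measured 739, 684 and 609 CPM at rest and 1031, 1306 and 1254 CPM after KCl, without overlap (log2 fold change 0.82; adjusted p = 0.000928 in edgeR). It was the only call among 29 genes of amino acid stress, whose median was 0.10, where 1.98% of all genes tested were called. Asns (0.02), Trib3 (-0.30), Slc7a1 (0.05) and Aars (0.22), all regarded as targets of Atf4, were not called. Among 23 genes of ER folding, the cochaperone Dnajb9 rose (0.79, called in 1 of the 6 fits). Hspa5 (0.52, adjusted p = 0.256), Xbp1 (-0.35) and Herpud1 (-0.03) were not called.

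Other rises are given by their values. Rsrp1 and Cwc25 were named for their small p-values against Bic, and the genes given with them were picked after their values were seen. Rsrp1, an arginine and serine rich protein, measured 183, 213 and 180 CPM at rest and 605, 458 and 451 CPM after KCl (log2 fold change 1.4 ± 0.13, SE; adjusted p = 9.77e-08 in edgeR). Cwc25, a spliceosome factor, went from 52.6, 54.6 and 48.2 to 150, 195 and 192 CPM (log2 fold change 1.80; adjusted p = 2.04e-06 in edgeR). Neither overlapped between the groups. Nktr had 0.98, the chromatin remodeller gene Chd2 had 1.23 and Rbbp6 had 1.02. Ccnl1, a cyclin of splicing kinases, had 1.13, the kinase gene Cdk11b had 1.16, the SR protein kinase gene Clk1 had 1.16, Pnn had 0.71 and the m6A reader gene Ythdc1 had 0.81. Clk1 and Ythdc1 were called in 1 of the 6 fits each, Pnn in 4, and Ccnl1 and Chd2 in 5.

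The falls were spread over many genes, and zinc finger factors were common among them. Among the 12 deepest falls by the rule used above for the rises, 6 were Zfp genes. Zfp799 measured 36.5, 26.4 and 29 CPM at rest and 3, 14 and 10.2 CPM after KCl (log2 fold change -1.74 ± 0.32, SE; adjusted p = 0.00179 in edgeR). Zfp27 went from 36.9, 25.8 and 44.4 to 12.9, 11.5 and 10.5 CPM (log2 fold change -1.64). Zfp563 (-1.62), Zfp87 (-1.52, called in 5 of the 6 fits), Zfp334 (-1.62, 3 fits) and Zfp583 (-1.66, 2 fits) are the others. Genes whose symbols begin with Zfp, Zkscan or Zscan and a number were then counted, a set drawn up after these values were seen. Many of them encode KRAB zinc finger repressors. Of 309 tested, 22 fell (7.12%, against 0.936% of all genes tested), 3 rose (Zfp184, and Zfp207 and Zfp131, called in 4 and 0 of the 6 fits) and the others were not called. Their median log2 fold change was -0.36, and 225 (72.8%) lay below 0, against 49.8% of all genes tested.

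**Figure D3:**
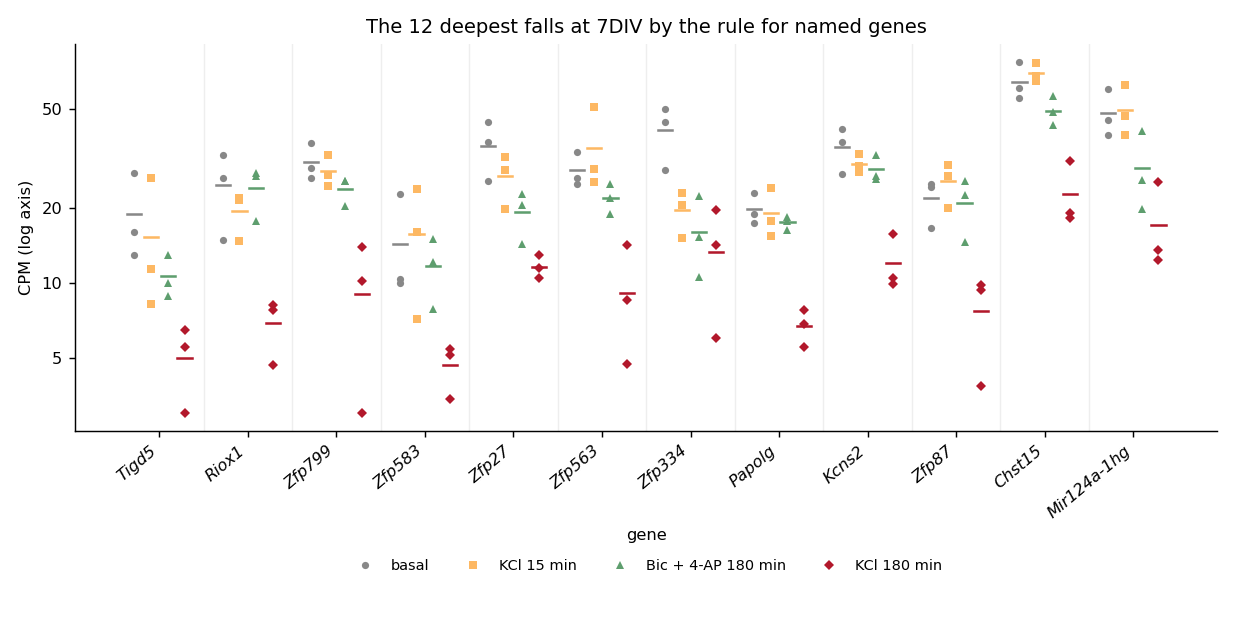
CPM on a log axis for the 12 deepest falls by the rule for named genes, each sample a point and each group mean a line, at 7DIV. The red diamonds (KCl 180 min) lie below all grey circles (basal) for each gene; for Zfp334 the KCl 15 min and Bic 180 min samples lie below the basal samples too.

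Other deep falls were of several kinds. Tigd5 (log2 fold change -1.86, called in 2 of the 6 fits) derives from a transposase. Riox1, a ribosomal oxygenase gene, went from 32.7, 26.4 and 14.9 to 8.15, 4.68 and 7.80 CPM (-1.80; adjusted p = 0.000581 in edgeR). Papolg, a poly(A) polymerase gene, went from 17.5, 19.0 and 23 to 6.86, 5.53 and 7.80 CPM (-1.56; adjusted p = 0.00033 in edgeR). Chst15, a chondroitin sulfotransferase gene, and Mir124a-1hg, a host transcript of the neuronal microRNA miR-124, had -1.51 and -1.50. Prr32 had 5, 4 and 22 counts at rest and 0 in each KCl library, and no fold is given for it. Its call was lost in each of the 6 fits that left out 1 library.

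Potassium channel genes included a pair of falls among 43 tested, with a median of -0.04 and no rise. Over all genes tested, 0.936% fell. Kcns2, a silent subunit that modifies Kv2 channels, measured 36.9, 41.7 and 27.4 CPM at rest and 9.86, 15.7 and 10.5 CPM after KCl, without overlap (log2 fold change -1.54 ± 0.26, SE; adjusted p = 0.000621 in edgeR). Kcna1, the Kv1.1 subunit of axons, measured 447, 328 and 261 CPM at rest and 172, 273 and 212 CPM after KCl. Its groups overlapped, since KCl replicate 2 lay above basal replicate 4 (log2 fold change -0.65; called in 3 of the 6 fits). Kcnj2, Kcnk1, Kcnma1 and Kcnab1 were not called, with values between -0.53 and 0.88. None of 37 sodium and calcium channel genes was called, with a median of 0.06 and all values between -0.42 and 0.60, Cacna1a at 0.01 and Scn1a at 0.47 among them.

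The 23 neurofilament and neuronal tubulin genes tested had a median of 0.02 and 1 call, where 1.98% of all genes tested were called. That call was Nefh, the heavy neurofilament subunit. It went from 8.05, 17.8 and 9.21 to 2.14, 2.55 and 2.37 CPM, without overlap (log2 fold change -2.22; adjusted p = 0.000942 in edgeR). Nefl (-0.08), Map1b (0.06) and Tuba1a (0.03) were not called.

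In the list of Notch targets and ID factors, 1 of 20 genes rose and 1 fell, with a median of 0.17. Over all genes tested, 1.98% were called. Hes5, a Notch target that holds progenitors back from becoming neurons, went from 9.95, 20.9 and 14.4 to 3.86, 3.40 and 0.678 CPM (log2 fold change -2.53; adjusted p = 0.017 in edgeR, called in 3 of the 6 fits). Sox9, which is also an astrocyte marker, went from 131, 82.2 and 99.1 to 184, 248 and 239 CPM (log2 fold change 1.10; called in 2 of the 6 fits). Hepacam (1.68, called in 2 fits) and Mfge8 (0.70, called in 3 fits), both known from astrocytes and picked after their values were seen, rose as well. The sum of astrocyte markers was higher after KCl, with a log2 ratio of 0.40. The marker list had a median of 0.24, with 9 values above 0 and 5 below, down to -1.23. Gfap (0.53) and Aqp4 (0.39) were not called. On the same basal samples, the list median was 0.28 with KCl for 15 min and 0.24 with Bic for 180 min. The part of astrocyte RNA in these results was not tested. Hes1 (0.42), Id1 (1.32, adjusted p = 0.205) and Notch1 (0.39) were not called.

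**Figure D4:**
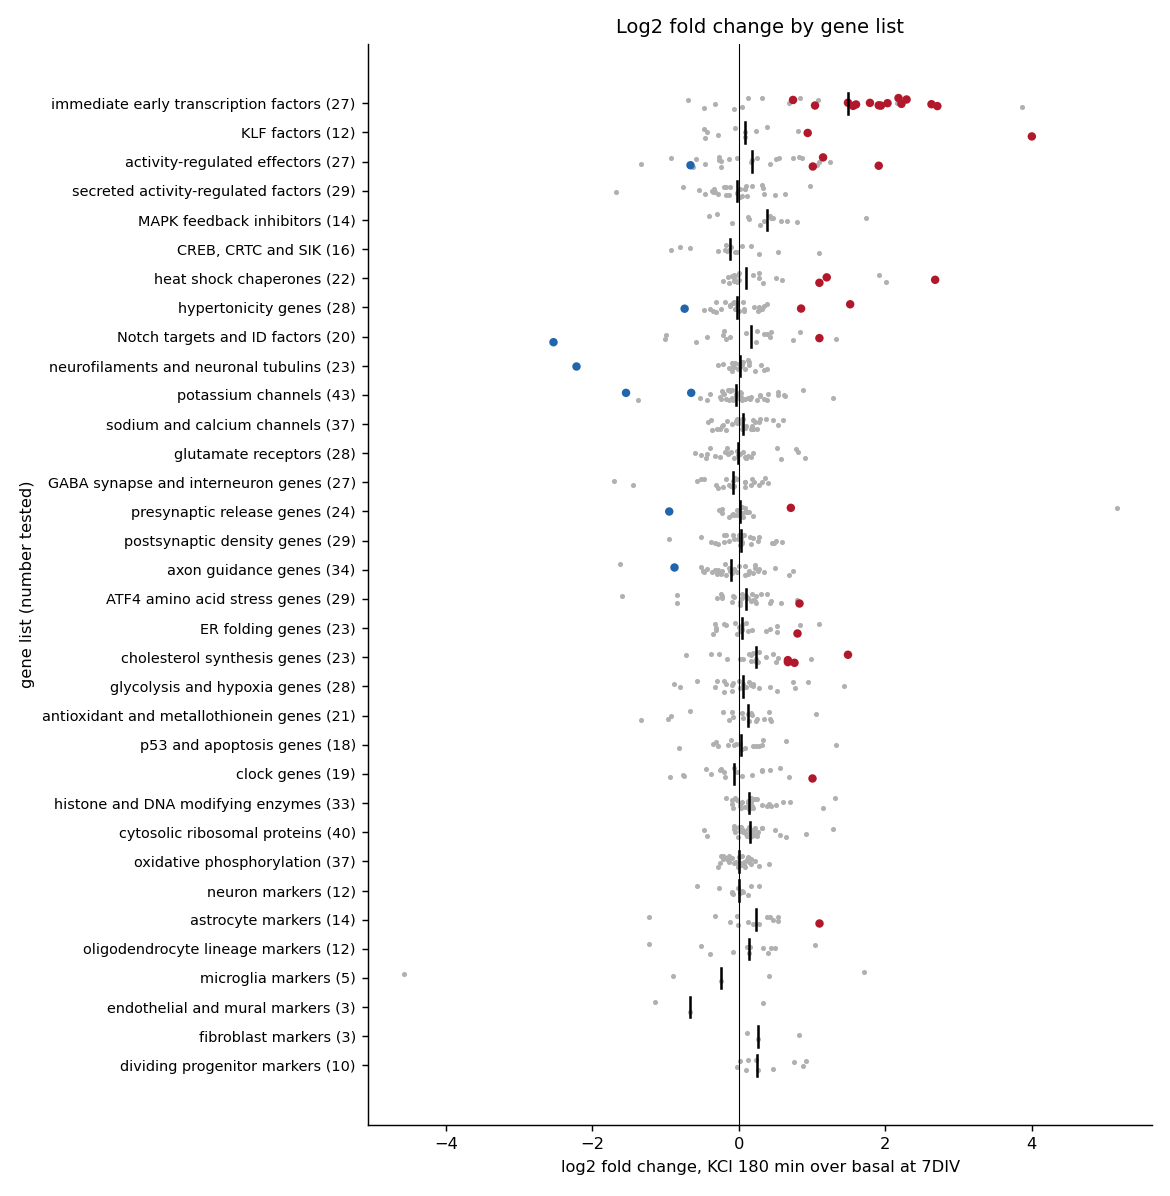
Log2 fold change of KCl 180 min over basal at 7DIV (horizontal axis) for the tested members of 34 gene lists (vertical axis, number tested in brackets); points are genes, red for rises and blue for falls, and black bars are medians. The bar of the immediate early transcription factors stands at 1.49, and those of the neuronal and metabolic lists lie close to 0.

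Among genes of synapses the share called was near the 1.98% of all genes tested. Syt4, a synaptotagmin of dense-core vesicles, rose (log2 fold change 0.71, called in 1 of the 6 fits), and the vesicle protein gene Sv2b fell (-0.95, called in 2 fits) among 24 presynaptic genes, with Snap25 at -0.10 and Syp at -0.08. None of 28 glutamate receptor genes (median -0.01), 27 genes of GABA synapses and interneurons (-0.08) or 29 postsynaptic density genes (0.03) was called. Grin1 measured 134 ± 16.6 and 121 ± 18.9 CPM, and Gria1 136 ± 14.7 and 130 ± 12.2 CPM (SD, n = 3 each). Gad1, the enzyme that makes GABA, measured 357 ± 26.1 and 241 ± 49.7 CPM (SD, n = 3 each) and missed the threshold (adjusted p = 0.0813). Nrp1, the semaphorin and VEGF coreceptor, was the only call among 34 axon guidance genes. It fell from 103, 85.3 and 81.8 to 49.7, 42.5 and 52.9 CPM, without overlap, and its call was kept in 0 of the 6 fits (log2 fold change -0.89; adjusted p = 0.0301 in edgeR). Cnr1, the cannabinoid receptor gene, was picked after its values were seen, and fell from 133, 156 and 143 to 77.2, 71.9 and 97.7 CPM (-0.80, called in 5 of the 6 fits).

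Metabolic and housekeeping lists held 1 call, where 1.98% of all genes tested were called. Nr1d2, a nuclear receptor of the clock, went from 19.9, 29.4 and 31.7 to 51, 55.7 and 56.6 CPM (log2 fold change 1.00; called in 5 of the 6 fits), while the other 18 of 19 clock genes were not called, Per1 (0.43), Dbp (-0.94) and Clock (-0.26) among them. No call was made among 28 genes of glycolysis and hypoxia (median 0.06), 21 antioxidant and metallothionein genes (0.12) or 18 genes of p53 and apoptosis (0.04). None was made among 33 histone and DNA modifying enzymes (0.14), 40 cytosolic ribosomal proteins (0.15) or 37 subunits of oxidative phosphorylation (0.00). Slc2a3, the neuronal glucose transporter, had 0.52 (adjusted p = 0.177), Cdkn1a had -0.06 and Bcl2 had -0.82 (adjusted p = 0.0578). In a simulation with known changes, the test called 62.4% of genes changed 2-fold and 97.0% of genes changed 3-fold. Every simulated gene had the same median spread, and only genes above a minimum resting level were changed. The shares may thus be too high for real genes of larger spread or lower level. No 1.5-fold change was simulated, but a change near 1.5-fold in a single gene could go uncalled.

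A gene of the Y chromosome was among the rises. Ddx3y, an RNA helicase gene picked after its values were seen, went from 139, 169 and 94.5 to 272, 301 and 247 CPM, without overlap (log2 fold change 1.04; adjusted p = 0.00932 in edgeR, called in 4 of the 6 fits). The other Y-linked genes Eif2s3y (-0.20), Uty (0.57) and Kdm5d (0.49) were not called. The X-inactivation transcript Xist measured between 228 and 294 CPM at rest and between 261 and 374 CPM after KCl. The part of the mix of sexes was not tested.

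The 15 min samples place these changes in time. Against basal, KCl for 15 min gave 0 calls (0%) in edgeR, with 659 genes at an unadjusted p under 0.05, and 3 calls in DESeq2. The early factors had a median log2 fold change of -0.21 at 15 min and 1.49 at 180 min, both against the same basal samples. Fos, for example, measured 57.7, 71.3 and 49.4 CPM at 15 min, no higher than at rest. A direct test of 180 min against 15 min does not use the basal samples, and it gave 318 calls (2.71%), 181 higher (1.54%) and 137 lower (1.17%). The calls over basal were chosen on the same KCl 180 min libraries, so agreement between the tests is partly built in. Of the rises over basal, 96 of 123 were also called higher than at 15 min, and of the falls 62 of 110 were also called lower, with none in the opposite direction. Those with the smallest p-values were Junb (log2 difference 2.71; adjusted p = 9.03e-09 in edgeR), Ier2 (2.66), Fbxo33 (1.78), Fosb (3.24), Vps37b (1.52), an ESCRT gene, and Pnrc1 (1.76), a transcriptional coregulator gene. Among the sterol genes 7 were higher than at 15 min, and 15 of the early factors were. The count was 176 and 165 without KCl 180 min replicates 3 and 2, and 158, 199 and 198 without KCl 15 min replicates 1, 2 and 3.

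Bicuculline acts by way of synapses, which are still few in young cultures, while KCl acts on the membrane directly. The other drug in Bic closes potassium channels, so Bic as used here does not act by way of synapses alone. The part of each drug was not tested. Against the same basal samples, Bic for 180 min gave 0 calls (0%) in edgeR, with 701 genes at an unadjusted p under 0.05, and 0 calls in DESeq2. Bic for 15 min gave 0 calls in edgeR (793 genes at an unadjusted p under 0.05) and 3 in DESeq2. KCl for 180 min was then tested directly against Bic for 180 min, which leaves the basal samples out, and 157 genes were called (1.34%), 102 higher (0.868%) and 55 lower (0.468%) after KCl. Of the rises over basal, 67 of 123 were also called higher than with Bic, and of the falls 32 of 110 were also called lower, with none reversed. Among these, 63 rises and 27 falls were also called against 15 min of KCl. All of these tests share the KCl 180 min libraries on which the genes were chosen, so their agreement is not independent support.

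Of the early factors, 10 were higher with KCl than with Bic: Fos, Fosb, Junb, Egr1, Nr4a1, Nr4a2, Npas4, Ier2, Mafk and Crem. Junb measured 47.1, 49.7 and 41 CPM with Bic, well under every KCl library (log2 difference 2.18 ± 0.22, SE; adjusted p = 6.98e-07 in edgeR). Fos measured 102, 144 and 97.1 CPM with Bic, above all basal and below all KCl libraries. Its log2 fold change over basal was 0.69 with Bic (adjusted p = 0.736) and 2.03 with KCl, on the same basal samples. Crem (log2 difference 1.62), Egr1 (1.83), Nfkbid (2.71), Cwc25 (1.72) and Rsrp1 (1.10) were with Junb the calls of smallest p-value. Nfkbid measured 5.81, 12.3 and 7.14 CPM with Bic, in the range of the basal libraries.

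In the sterol list 5 genes were higher with KCl than with Bic, with Msmo1 at 715, 701 and 747 CPM under Bic (log2 difference 0.60; adjusted p = 0.00285 in edgeR). Kcns2 (-1.26), Nefh (-2.16), Hes5 (-2.52) and Slc12a2 (-0.79) were lower with KCl. For a number of genes no difference between the stimuli was detected. Atf4 measured 981, 1053 and 888 CPM with Bic, and its log2 difference was 0.30 ± 0.14 (SE; adjusted p = 0.395 in edgeR). Nr4a3 (0.49 ± 0.19, SE), Jun (0.83 ± 0.23, SE) and Bdnf (-0.05 ± 0.23, SE) also missed the threshold, and the errors of Nr4a3 and Jun leave room for a difference. The 157 calls became 87 and 83 without KCl replicates 3 and 2, and 80, 100 and 83 without Bic replicates 1, 2 and 3.

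The same stimulus in mature neurons was compared through an interaction term, which asks whether the effect of KCl over basal differed between the stages. At 23DIV, KCl for 180 min gave 574 calls (4.89%), 350 higher (2.98%) and 224 lower (1.91%). Of the 7DIV rises 45 were also rises at 23DIV, which is 36.6% of the 7DIV and 12.9% of the 23DIV rises. Of the 7DIV falls 10 were also falls at 23DIV, which is 9.09% and 4.46%. Values at 23DIV had the same sign for 106 of the 123 rises and 81 of the 110 falls. At both stages 3 genes were called in opposite directions, Rasl11b and Prr32 among them. The difference between stages itself was called for 91 genes (0.775%), 51 with a more positive (0.434%) and 40 with a more negative (0.341%) change at 23DIV, of which 31 were calls at 7DIV. The 31 comprise 17 rises and 14 falls. They had passed the test at 7DIV, whose samples also enter the difference, so no direction is read from them. The count of 91 ranged from 36 to 288 when 1 library was left out, with 288 and 196 without 23DIV KCl replicate 1 and 23DIV basal replicate 1.

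Early factors rose at both stages, Egr1, Egr4 and Crem being the only 7DIV rises of this list not called as rises at 23DIV. The list had 15 rises and 2 falls (Egr3 and Nab2) at 23DIV and a median of 1.54, against 1.49 at 7DIV. Junb rose by 2.35 on the log2 scale at 23DIV, and the difference between stages was -0.28 (adjusted p = 0.74 in edgeR). Fos had a lower resting level at 23DIV, at 21.6, 11.3 and 12.1 CPM, and reached 72.2, 194 and 223 CPM (log2 fold change 3.45). Its difference between stages was 1.43 (adjusted p = 0.0781 in edgeR). Egr1 was the only early factor with a called difference. At 23DIV it went from 51.2, 48.6 and 55.7 to 75.5, 75.5 and 69.4 CPM, a log2 fold change of 0.50 against 2.29 at 7DIV (difference -1.78 ± 0.32, SE; adjusted p = 0.00617 in edgeR). Srf measured 92.8, 136 and 141 CPM at rest and 146, 138 and 98.6 CPM after KCl at 23DIV, with full overlap (difference -1.61; adjusted p = 0.0306 in edgeR). Klf4 had a log2 fold change of 4.12 at 23DIV and a difference of 0.12 (adjusted p = 0.965).

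**Figure D5:**
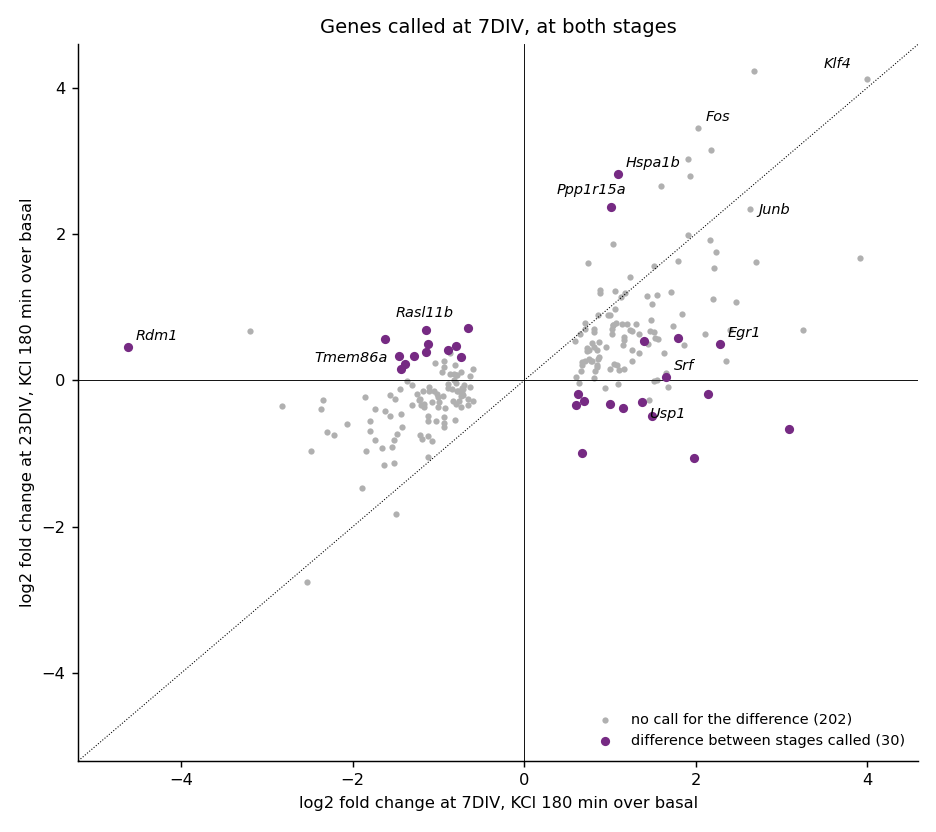
Log2 fold change of KCl 180 min over basal at 23DIV (vertical axis) against that at 7DIV (horizontal axis) for 232 of the 233 genes called at 7DIV, Prr32 being left out; the dotted line marks equal changes. Purple points mark the 30 plotted genes with a called difference between stages, and grey points the other 202, with Hspa1b and Ppp1r15a above the line among the rises; all points were chosen by their change at 7DIV.

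In the sterol list, Stard4 had a difference between stages of -1.97 (adjusted p = 0.0313 in edgeR), and the list had 0 rises and 2 falls at 23DIV.

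Larger responses at 23DIV were called for Hspa1b and Ppp1r15a among the rises. Hspa1b reached 138, 230 and 198 CPM at 23DIV, a log2 fold change of 2.82 against 1.10 at 7DIV (difference 1.72 ± 0.30, SE; adjusted p = 0.00574 in edgeR). Ppp1r15a had 2.37 against 1.01 (difference 1.36; adjusted p = 0.0161). Rasl11b fell at 7DIV and went from 166, 131 and 134 to 189, 243 and 277 CPM at 23DIV (difference 1.37 ± 0.23, SE; adjusted p = 0.00482). Responses lower at 23DIV than at 7DIV were called for Trib1 (difference -1.52), Cwc25 (-1.22), Rsrp1 (-0.86), Nr1d2 (-1.32) and the deubiquitinase gene Usp1 (-1.67), the last picked after its values were seen. Nr1d2 had a resting level between 116 and 180 CPM at 23DIV, against 19.9 to 31.7 CPM at 7DIV.

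Among the falls, Tmem86a, which encodes a lysoplasmalogenase, measured 41.7, 55.2 and 72.6 CPM at rest and 24, 20 and 19.3 CPM after KCl at 7DIV. At 23DIV it stayed between 63.3 and 78.6 CPM in all 6 libraries (difference 1.59 ± 0.29, SE; adjusted p = 0.00915 in edgeR). Rdm1, a gene of the RAD52 motif family, had 29, 19 and 24 counts at rest and 1 count in each KCl library at 7DIV. This is a ratio of 0.0392 (95% exact interval 0.0079 to 0.119, counting error only). It had between 0.715 and 5.59 CPM at 23DIV with overlap of the groups. Hes5, by contrast, fell at both stages, with -2.76 at 23DIV, and Kcns2 and Mir124a-1hg did so too, with -0.91 and -1.83. The zinc finger genes had 10 falls and 1 rise at 23DIV and a median of -0.10, against -0.36 at 7DIV. A difference between stages was called for 2 of them, Zfp334 and Zfp60.

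Some lists with more calls at 23DIV than at 7DIV are given side by side, without a test of the lists. Several had more falls, where 1.91% of all genes tested fell at 23DIV and 0.936% at 7DIV. Sodium and calcium channels had 5 falls at 23DIV against 0 at 7DIV, and potassium channels 5 against 2. Neurofilaments and neuronal tubulins had 4 against 1. Other lists had more rises. Activity-regulated effectors had 10 rises at 23DIV (median 0.87) against 3 at 7DIV (0.18), where 2.98% and 1.05% of all genes tested rose. A difference was called for 4 of 27 genes (0.775% of all genes), with Rasl11b, Ppp1r15a and Rgs2 more positive at 23DIV and Trib1 more negative. Secreted factors had 8 rises (0.33) against 0, with no gene called for the difference. Amino acid stress genes had 12 rises (0.50) against 1, and glycolysis and hypoxia genes 6 (0.41) against 0. Bdnf had a log2 fold change of 0.78 at 23DIV (adjusted p = 0.0343) and 0.35 at 7DIV, and the difference of 0.43 ± 0.32 (SE) was not called (adjusted p = 0.592). Arc had 0.87 and -0.62, with a difference of 1.49 ± 0.56 (SE; adjusted p = 0.206 in edgeR). Whether the cultures of both stages came from the same dissection is not given, so age and dissection cannot be told apart.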

How the data were processed

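RNA (30 ng a sample per the labels; the study's methods give a lower input) was made into 3′ end CEL-Seq2 libraries, and the authors aligned the reads with STAR to mm10 and counted them per RefSeq transcript with ESAT. The deposited values are whole-number counts, not normalised. Whether molecular identifiers were collapsed is not given in the sources used here. Of 97700 transcripts, 78905 (80.8%) were matched to gene symbols with RefSeq GRCm38.p6. The unmatched ones held 18.5% of counts and were left out. The transcript with most counts represented each of 28492 genes. The sum over transcripts, which counts reads shared between them repeatedly, was 3.13 times as large and was an alternative.

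Genes over 5 CPM in at least 2 of the 28 samples were kept (11746). edgeR 4.0.16 in R 4.3.3 was used with TMM factors, 1 group per condition over 28 samples (18 residual degrees of freedom), the quasi-likelihood test and Benjamini-Hochberg adjustment over all genes. The call was an adjusted p under 0.05 with at least 1.5-fold, or the adjusted p alone for the difference between stages. CPM used TMM-scaled library sizes, and log2 CPM a prior count of 2. Fold changes are those of the edgeR fit at its default prior count. The fit gives no SE, so each SE printed was worked back from the test. It is the absolute log2 fold change divided by the square root of the F statistic, and is approximate. Depth of the 6 libraries ranged from 1659722 to 3664631 counts, which limits precision for genes of few CPM. Pairs of replicates differed by more than sampling noise of independent counts (chi-square per degree of freedom 4 to 5.12), and each library was kept as a sample. Since it is not given whether molecular identifiers were collapsed, these values cannot exclude technical duplicates. On simulated data the test called 63 of 101 genes changed 2-fold, 96 of 99 changed 3-fold and 8 unchanged genes, none in the wrong direction. The simulation gave every gene the median dispersion and changed only genes above a minimum resting level, unlike the real data.

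Gene lists (34) and members were chosen with earlier results of these data known. Genes named were the 12 largest rises and falls among calls with mean log2 CPM of at least 3 and no overlap, up to 4 called members and the first member of each role per list, and up to 6 calls of smallest p in each other test. Others are said to be picked afterwards, except uncalled list members given as examples. Alternatives were other normalisations, filters, DESeq2 1.42.0, edgeR's likelihood ratio test, fewer samples in the fit, thinned counts, a replicate block and leaving out each library. DESeq2 was added for comparisons with 0 calls after seeing the data. A few genes that these rules name are not reported here. The samples of the stimuli experiment were not used here.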

Additional observations from a re-analysis of the deposited data

Results flagged for a closer look

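The effect of KCl for 180 min differed between the stages for 91 genes by the interaction test in edgeR, and 31 of them were calls at 7DIV. Of these, 5 with small adjusted p-values are given by this test of the difference, as the change at 23DIV minus the change at 7DIV on the log2 scale. They were Rasl11b (1.37), Hspa1b (1.72), Egr1 (-1.78), Tmem86a (1.59) and Rdm1 (5.09). The value of Rdm1 rests on 1 count in each 7DIV KCl library and depends on the prior count, so it is no measure of size. Reads may be split between Hspa1b and the nearly identical Hspa1a.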

How the results depend on the processing

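None of the 233 calls was called in the opposite direction under any alternative run. Of 2869 values of named genes under other settings, 2505 kept their direction and side of the threshold and 364 lost the call, with 0 reversed. The 233 calls against basal became 356 with edgeR's likelihood ratio test, and 106 to 183 when 1 library was left out. A fit on the compared groups only gave 163 calls, 107 rises and 56 falls, and kept 142 of the 233. Library size alone in place of TMM gave 106 rises and 136 falls. The 318 calls against KCl for 15 min became 158 to 290 with 1 library left out. The 157 calls against Bic became 290 with the likelihood ratio test, 311 without a filter and 80 to 124 with 1 library left out. The 91 calls for the difference between stages became 251 with the likelihood ratio test, 216 in DESeq2, 305 without a filter, 45 with the compared groups only and 36 to 288 with 1 library left out. The cause was not tested, beyond the smaller number of samples. Replicate numbers did not pair the samples. Deviations of samples with the same number correlated at -0.012 and 0.029 between basal and KCl, and between -0.247 and -0.066 at 23DIV. With a replicate block there were 133 calls against basal, 304 against KCl for 15 min, 150 against Bic and 44 for the difference between stages. Replicate number 4 occurs only in 7DIV basal, so the block takes up that library entirely. Leaving that library out without a block gave 130 calls against basal, so the count of 133 does not show an effect of pairing. At this depth, changes near 1.5-fold and genes of few CPM could go uncalled.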
